A study of Mus musculus with 6 samples.

Results

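Voltage-gated sodium and calcium channel genes were compared between the retinas of 15-day-old SIRT6-KO and SIRT6 WT mice of the 129SvJ strain, with 3 arrays of total retinal RNA for each genotype. The members were the sodium channel genes (Scn, a number, and a for alpha or b for beta) and the calcium channel genes of the Cacna, Cacnb and Cacng families whose array probe set carries a single gene symbol, leaving out Scn1a, Scn8a, Cacna1f, Cacna2d4 and Cacnb2. This gave 31 genes with 33 probe sets out of 22180 genes, and where a gene had 2 probe sets the brighter one was used. Some further genes of these families were not analysed here. The KO is of the whole animal, and SIRT6-deficient mice are known to become hypoglycemic, so that retinal and systemic loss of SIRT6 cannot be told apart in this comparison. Neither the labels nor the methods say whether a sample is 1 animal or a pool, and the p-values therefore measure only the spread between these samples.

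Voltage-gated sodium channels carry the rising phase of the action potential. Each is built around a large pore-forming alpha subunit, to which small beta subunits attach that set its gating and its place in the membrane. Voltage-gated calcium channels let calcium in when a cell is depolarized and thereby trigger transmitter release. Their pore is the alpha1 subunit, of the long-lasting L type, the presynaptic P/Q, N and R types or the low-voltage T type, and it is carried to the membrane and tuned by a cytoplasmic beta and an extracellular alpha2delta subunit. In the retina, ganglion cells and some amacrine cells fire sodium spikes, while photoreceptors and bipolar cells release glutamate from ribbon synapses through L-type channels.

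Sirt6 itself had log2 intensities of 6.47, 7.15 and 6.83 in KO replicates 1 to 3, against 9.34, 9.14 and 9.32 in WT replicates 1 to 3, a log2 fold change of -2.45 (standard error 0.20), so that every sample matched its genotype label. It was the only gene to pass after adjustment for multiple testing (limma, adjusted p = 0.0321), which is 0.00425% of the 23521 probe sets tested. The summed linear intensity of 6 rod genes was 38560 to 42533 in KO and 41484 to 43395 in WT retinas. That of 8 lens genes was also high and varied widely (10177 to 29541 in KO and 14836 to 52248 in WT). No reference tissue stood beside these sums, and the purity of the samples was not tested. The arrays numbered 2 stood apart in both genotypes, with an interquartile range of log2 intensity of 2.48 in KO replicate 2 and 2.27 in WT replicate 2, against 2.84 to 3.15 in the other arrays. Samples with the same replicate number deviated together from their genotype's mean for numbers 1 and 2 (correlations of 0.63 and 0.74), but only weakly for number 3 (0.19). KO replicate 1 and WT replicate 3, which share no number, correlated at 0.51. Differences within a number are given below.

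Most of the channel genes had slightly lower means in KO retinas, and few of them stood out. The KO mean lay under the WT mean in 24 of the 31 genes, beside 51.8% of all probe sets. The median log2 fold change of the members was -0.10, beside -0.01 over all probe sets. Only Cacna1i, a T-type alpha1 subunit, fell at an unadjusted p under 0.05 (limma), beside 0.961% of all probe sets, and 0 members rose, beside 0.897%. With the replicate number as a block, Scn2b, a sodium channel beta subunit, fell as well, which made 2 members where 3.54% of all probe sets fell and 3.77% rose. No member passed after adjustment over all probe sets (limma, adjusted p = 0.9999 for each). The KO values lay wholly below the WT values in 3 members, Cacna1i, Cacna1c and Cacnb1, beside 3.67% of all probe sets, and wholly above them in 0, beside 1.98%.

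**Figure D1:**
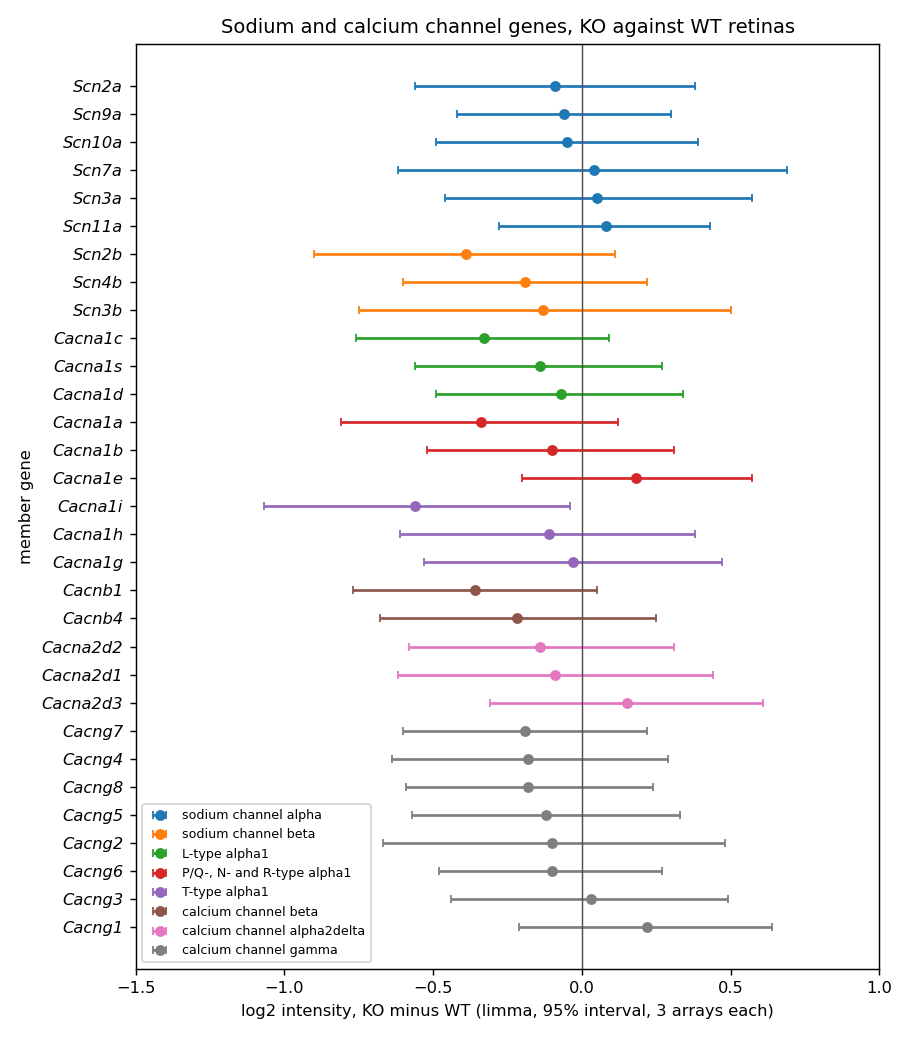
Log2 fold change (KO minus WT) of the 31 channel genes on the horizontal axis, grouped by role, with 95% intervals from limma over 3 arrays of each genotype. The interval of Cacna1i, from -1.07 to -0.04, is the only one that does not reach 0.

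The promoters of the 3 genes whose KO values lay wholly below the WT values are shown to let their start regions be compared. RefSeq sequences of GRCm38.p6 from 250 bases before to 50 bases after a gene's start were found for 24 of the 31 members. Capitals mark the searched motifs, on either strand: the TATA box TATAAA, the GC box GGGCGG, the photoreceptor-type homeodomain site TAATCC and the left part CAGCACC of the element bound by the neuronal repressor REST. The windows lie at chr15:80286988-80287287 on the plus strand for Cacna1i, chr11:98022578-98022877 on the minus strand for Cacnb1 and chr6:119196360-119196659 on the minus strand for Cacna1c, the first of 2 and of 3 listed starts for the last pair.
Cacna1i: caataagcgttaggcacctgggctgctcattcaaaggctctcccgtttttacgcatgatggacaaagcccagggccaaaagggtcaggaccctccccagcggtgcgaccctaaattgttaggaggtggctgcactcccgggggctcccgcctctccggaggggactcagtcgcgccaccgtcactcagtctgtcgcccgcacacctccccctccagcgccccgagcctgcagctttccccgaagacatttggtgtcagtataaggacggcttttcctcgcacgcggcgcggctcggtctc
Cacnb1: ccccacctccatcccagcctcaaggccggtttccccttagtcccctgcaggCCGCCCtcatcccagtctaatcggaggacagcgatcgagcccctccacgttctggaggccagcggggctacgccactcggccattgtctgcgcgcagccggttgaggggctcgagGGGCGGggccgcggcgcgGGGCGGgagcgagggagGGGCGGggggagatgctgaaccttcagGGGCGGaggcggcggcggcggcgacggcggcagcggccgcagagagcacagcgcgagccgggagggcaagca
Cacna1c: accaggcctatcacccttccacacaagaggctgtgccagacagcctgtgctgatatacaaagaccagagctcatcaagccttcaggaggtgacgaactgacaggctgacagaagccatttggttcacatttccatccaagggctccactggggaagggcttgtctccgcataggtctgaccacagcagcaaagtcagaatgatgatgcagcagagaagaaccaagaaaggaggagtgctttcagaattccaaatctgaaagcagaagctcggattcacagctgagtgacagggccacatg

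The start regions of Cacnb1 and Cacna1i were rich in G, C and CpG, and that of Cacna1c was lower in both. That of Cacnb1 held 5 GC boxes, 73.7% G and C and 0.84 times the CpG dinucleotides that its base composition predicts. Cacna1i had 62.7% G and C and a CpG ratio of 0.79 without any of the motifs, and Cacna1c had 51.3% and 0.15, also without them. Over the 24 members the first listed window held a GC box in 10 genes (41.7%, beside 35.9% of all 27025 genes), TAATCC in 3 (12.5%, beside 7.2%), a TATA box in 1, Cacna1d (4.2%, beside 14.2%), and CAGCACC in 0 (beside 7.1%). The median CpG ratio was 0.52, beside 0.39 over all genes. These are matches of letters within a short window, and no binding was measured.

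The 6 sodium channel alpha subunits among the members, which leave out Scn1a and Scn8a, did not lean one way. Of these, 3 had a lower mean in KO, with a median log2 fold change of -0.01 and a range of -0.09 to 0.08. Scn2a codes for the alpha subunit found at the initial segments and unmyelinated axons of central neurons. Its log2 intensity was 9.22, 8.99 and 8.99 in KO replicates 1 to 3, against 9.30, 8.77 and 9.41 in WT replicates 1 to 3. The WT samples enclosed all the KO samples, and the log2 fold change was -0.09 (standard error 0.21). Scn3a, an alpha subunit most abundant in the developing brain, had 8.21 ± 0.26 in KO and 8.16 ± 0.35 in WT retinas (SD, n = 3 each), a log2 fold change of 0.05. Scn7a, a sodium channel relative that senses extracellular sodium in the brain, had 8.35, 8.07 and 8.10 in KO, against 8.66, 7.48 and 8.27 in WT replicates 1 to 3. WT replicate 2 was its lowest sample and WT replicate 1 its highest, so that the KO samples lay between them (log2 fold change 0.04, standard error 0.29).

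The alpha subunits of peripheral sensory neurons were at the dim end of the array. Scn11a had 5.64, 5.85 and 5.77 in KO, against 5.73, 5.68 and 5.62 in WT replicates 1 to 3, and the groups overlapped (log2 fold change 0.08, standard error 0.15). Scn10a had 5.52 ± 0.24 in KO and 5.56 ± 0.20 in WT retinas (SD, n = 3 each). Both had a mean under 6.05, the lower quartile of the mean log2 intensities, and the deposited values carry no detection call. Of 4 measured marker genes of sensory ganglia, the summed linear intensity was 329 to 339 in KO and 390 to 408 in WT retinas, and their part in these values was not tested. Scn9a, the remaining alpha subunit, is also known from sensory neurons, and its log2 fold change was -0.06 (standard error 0.16).

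The KO mean was the lower in all 3 sodium channel beta subunits among the members (median log2 fold change -0.19). Scn2b, which joins the alpha subunit through a disulfide bond, had 9.15, 8.67 and 8.65 in KO, against 9.27, 8.88 and 9.50 in WT replicates 1 to 3. KO replicates 2 and 3 lay below every WT sample, and KO replicate 1 lay above WT replicate 2. The log2 fold change was -0.39 (standard error 0.22), for which limma gave an unadjusted p of 0.111 and the exact two-sided permutation test 0.20. With the replicate number as a block the unadjusted p was 0.048 (adjusted p = 0.6820), and KO was lower than WT by 0.13, 0.21 and 0.84 in the samples numbered 1, 2 and 3. Scn4b, the other disulfide-linked beta subunit, whose cytoplasmic tail serves as the open-channel blocker of resurgent current, had 5.84, 6.28 and 6.09 in KO, against 6.19, 6.42 and 6.17 in WT. KO was lower within each replicate number, although the groups overlapped (log2 fold change -0.19, standard error 0.18). Its mean was just above the dim limit. Scn3b, a beta subunit attached without such a bond, had 9.38 ± 0.41 in KO and 9.51 ± 0.41 in WT retinas (SD, n = 3 each), a log2 fold change of -0.13.

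Among the T-type alpha1 subunits, which open near the resting potential, Cacna1i was the only one to pass the unadjusted test, and its difference from the other two was not tested. Cacna1i codes for the slowest of the T-type channels, known from the thalamic reticular nucleus and other neurons. Its log2 intensity was 8.59, 8.37 and 7.80 in KO replicates 1 to 3, against 8.89, 8.66 and 8.88 in WT replicates 1 to 3. The groups did not overlap, and KO replicate 3 was far below the other KO samples. This gave a KO level of 67.9% of WT and a log2 fold change of -0.56 with a standard error of 0.22, for which limma gave an unadjusted p of 0.036 and the exact two-sided permutation test 0.10 (the smallest that 3 samples against 3 allow). The call ended without KO replicate 3 (unadjusted p of 0.122, log2 fold change -0.33), without WT replicate 1 (0.098) and without WT replicate 3 (0.088), and with the methods' t-test (unadjusted p of 0.087). Without both samples numbered 2 the log2 fold change was -0.69 (unadjusted p of 0.043), and with the replicate block the unadjusted p was 0.015. Cacna1h had 9.60, 9.77 and 9.03 in KO, against 9.60, 9.49 and 9.66 in WT. KO replicate 2 was its highest sample and KO replicate 3 its lowest (log2 fold change -0.11, standard error 0.22). Cacna1g showed the same arrangement, with 9.78, 9.80 and 9.13 in KO and 9.66, 9.43 and 9.71 in WT (log2 fold change -0.03, standard error 0.22).

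The KO mean was also the lower in all 3 L-type alpha1 subunits among the members (median log2 fold change -0.14). Cacna1c, the L-type pore of heart, smooth muscle and many neurons, had 8.14, 8.08 and 7.64 in KO, against 8.20, 8.29 and 8.37 in WT replicates 1 to 3. The groups did not overlap, but KO replicate 1 and WT replicate 1 were only 0.06 apart and KO replicate 3 was again the lowest. The log2 fold change was -0.33 (standard error 0.19), for which limma gave an unadjusted p of 0.106 and the exact two-sided permutation test 0.10. Cacna1s, the voltage sensor of skeletal muscle, had 7.21, 7.51 and 7.40 in KO, against 7.41, 7.78 and 7.36 in WT, and the groups overlapped (log2 fold change -0.14, standard error 0.18). The summed linear intensity of 9 skeletal muscle genes was 913 to 1083 in KO and 967 to 1156 in WT retinas. Cacna1d, the L-type subunit of hair cells, pacemaker cells and retinal neurons, had 9.35 ± 0.27 in KO and 9.43 ± 0.03 in WT retinas (SD, n = 3 each), a log2 fold change of -0.07, and KO replicate 3 was the lowest sample at 9.05.

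Of the presynaptic alpha1 subunits, Cacna1a leaned lower in KO and Cacna1e higher. Cacna1a, the P/Q-type pore that drives release at fast central synapses, had 8.70, 8.91 and 8.26 in KO, against 8.91, 8.89 and 9.10 in WT replicates 1 to 3. KO replicate 2 reached the WT range, and the log2 fold change was -0.34 (standard error 0.20) with an unadjusted p of 0.129 from limma. Without both samples numbered 2 it was -0.53 (unadjusted p of 0.034 from limma), and without KO replicate 3 it was -0.16 (0.419). The share of all probe sets that fell under either alternative was not determined. Cacna1e, the R-type subunit, had 7.72, 7.70 and 7.43 in KO, against 7.44, 7.28 and 7.58 in WT, with overlapping groups. It had the highest log2 fold change of the alpha1 subunits, 0.18 (standard error 0.17). Cacna1b, the N-type subunit, had 8.79 ± 0.25 in KO and 8.90 ± 0.08 in WT retinas (SD, n = 3 each).

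**Figure D2:**
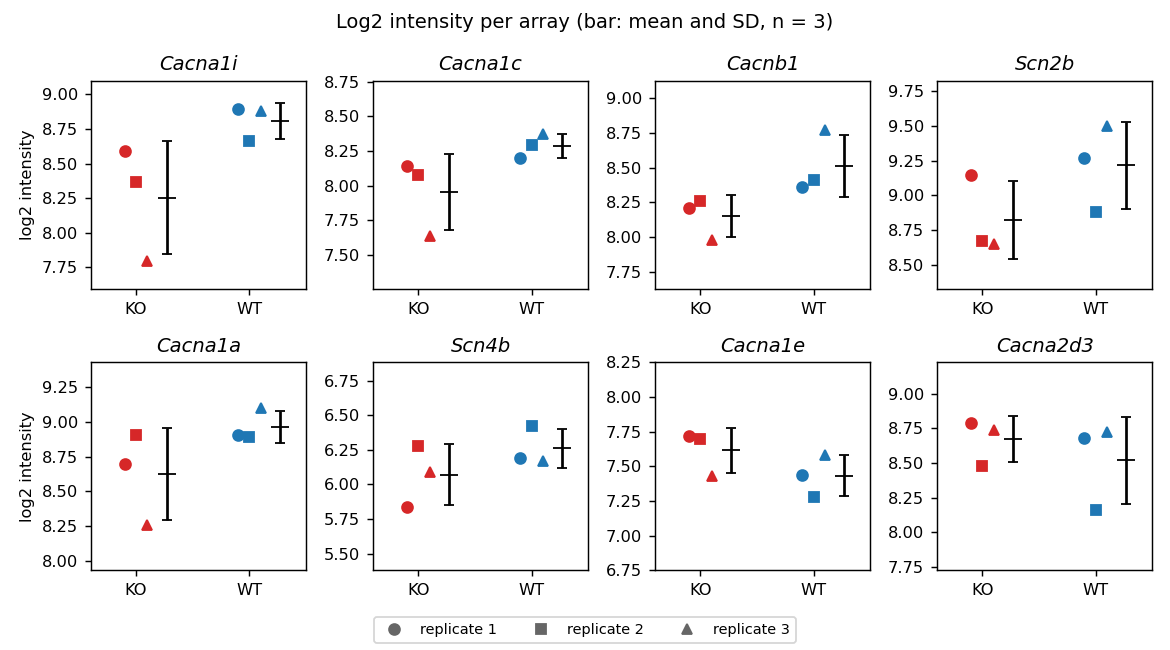
Log2 intensity on the vertical axis for 8 of the channel genes, with KO arrays left and WT arrays right, symbols for the replicate number, and bars for mean and SD (n = 3). In Cacna1i, Cacna1c and Cacnb1 all KO points lie below all WT points, and KO replicate 3 is the lowest of each.

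The calcium channel beta subunits carry alpha1 to the membrane, and both among the members, which leave out Cacnb2, had a lower mean in KO. Cacnb1, the beta subunit of skeletal muscle that neurons also express, had 8.21, 8.26 and 7.98 in KO, against 8.36, 8.41 and 8.77 in WT replicates 1 to 3. The groups did not overlap (exact permutation test, two-sided, p = 0.10), and WT replicate 3 was well above the other WT samples. The log2 fold change was -0.36 (standard error 0.18, unadjusted p of 0.079 from limma). Without both samples numbered 2 it was -0.47 (unadjusted p of 0.049), and without WT replicate 3 it was -0.23 (0.293). For these alternatives too, the share of all probe sets that fell was not determined. Cacnb4, a neuronal beta subunit whose loss causes the ataxia of lethargic mice, had 9.16, 8.82 and 8.74 in KO, against 9.21, 8.82 and 9.34 in WT. KO and WT replicates 2 had the same value to 2 decimals, and the log2 fold change was -0.22 (standard error 0.20). Its dimmer probe set (17370799) gave -0.06 (standard error 0.16).

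The alpha2delta subunits, which are the targets of gabapentin drugs in the case of Cacna2d1 and Cacna2d2, did not lean one way. Cacna2d2 had 9.99, 10.09 and 9.50 in KO, against 10.03, 9.92 and 10.03 in WT replicates 1 to 3, with KO replicate 3 the lowest sample and KO replicate 2 the highest (log2 fold change -0.14, standard error 0.19). Cacna2d3 had 8.79, 8.48 and 8.74 in KO, against 8.68, 8.16 and 8.72 in WT. Its KO sample was the higher within each replicate number, by 0.11, 0.32 and 0.01, and its log2 fold change was 0.15 (standard error 0.20). Cacna2d1 had 9.13 ± 0.20 in KO and 9.22 ± 0.40 in WT retinas (SD, n = 3 each).

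Of the 8 gamma genes, 6 had a lower mean in KO, with a median log2 fold change of -0.11 and a range of -0.19 to 0.22. Cacng1 and Cacng6 belong to the muscle-type gamma subunits of calcium channels, whereas Cacng2, Cacng3, Cacng4, Cacng5, Cacng7 and Cacng8 code for transmembrane regulators of AMPA receptors and carry the calcium channel name by descent. Cacng7 had 11.49, 11.24 and 10.99 in KO, against 11.44, 11.34 and 11.52 in WT replicates 1 to 3. KO replicate 1 lay within the WT range and the other KO samples below it (log2 fold change -0.19, standard error 0.18). Cacng1 was higher in KO within each replicate number, at 5.94, 6.37 and 6.07 in KO, against 5.85, 6.12 and 5.74 in WT (log2 fold change 0.22, standard error 0.19), but it was dim. Cacng8 (-0.18), Cacng4 (-0.18), Cacng5 (-0.12), Cacng6 (-0.10) and Cacng2 (-0.10) had lower means, none of which passed unadjusted, and Cacng3 had a log2 fold change of 0.03. The second Cacng2 probe set (17312697) gave -0.02 (standard error 0.15).

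The lower level of the members lay mostly in the samples numbered 3, the weakest of the 3 pairs (deviation correlation 0.19). There 25 of 31 genes were lower in KO than in WT, beside 52.1% of all probe sets, with a median difference of -0.41, beside -0.02 over all probe sets. In the samples numbered 1, 16 members were lower in KO (46.7% of all probe sets) with a median of -0.04, and in those numbered 2, 13 members were lower (53.1%) with a median of 0.08. KO was below WT in all 3 replicate numbers in 7 members, beside 15.9% of all probe sets, and above it in 2, beside 13.5%. The 7 were Cacna1i, Cacna1c, Cacnb1, Cacnb4, Scn2b, Scn4b and Cacng6, and the 2 were Cacna2d3 and Cacng1. In Cacnb4 the samples numbered 2 were equal to 2 decimals.

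**Figure D3:**
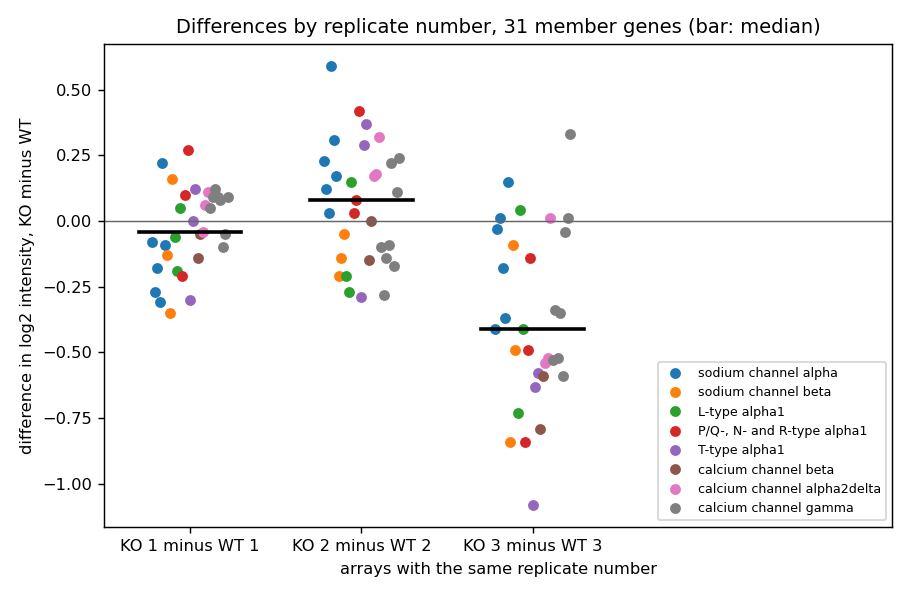
Difference in log2 intensity between the KO and the WT array of the same replicate number on the vertical axis, 1 point per channel gene, coloured by role, with the median as a bar. The medians are -0.04, 0.08 and -0.41 for the samples numbered 1, 2 and 3, and the point at -1.08 is Cacna1i.

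Which sample was extreme is given here for the members only, and the share over all probe sets was not determined. KO replicate 3 held the lowest of the 6 values in 12 members, and 7 of these were among the 9 calcium channel alpha1 subunits of the membership. Within KO, replicate 3 was the lowest in all 9 except Cacna1s. In the samples numbered 3 the median difference of the 9 alpha1 subunits was -0.58, against 0.00 and 0.08 in those numbered 1 and 2. Among the 6 sodium channel alpha members, KO replicate 3 held the lowest value in 0 and WT replicate 2 in 3. Over all members, WT replicate 3 held the highest value in 14 and KO replicate 3 in 0. Whether alpha1 and sodium channel subunits differ in this respect was not tested. Leaving out KO replicate 3 brought the median log2 fold change of the members to -0.06 and the number with a lower mean to 19, and leaving out WT replicate 3 brought them to -0.05 and 19.

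**Figure D4:**
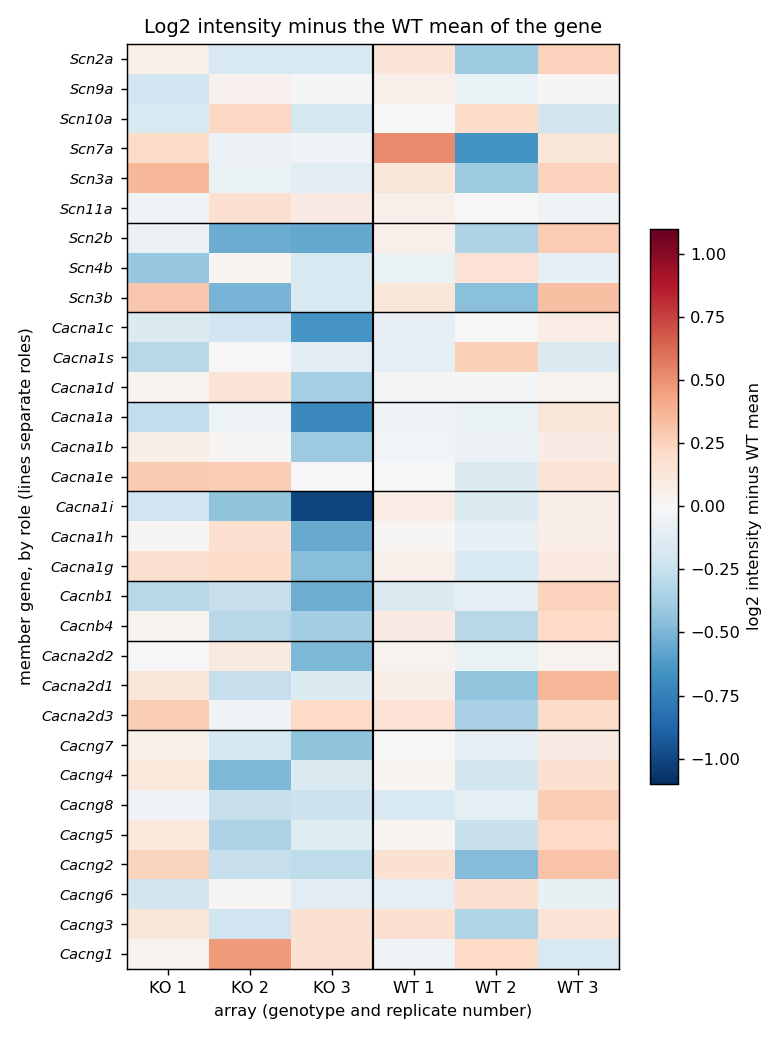
Log2 intensity minus the gene's WT mean (colour scale) for the 31 channel genes in rows, by role, and the KO arrays left of the WT arrays in columns. The blue run in KO 3 covers most of the calcium channel alpha1 subunits, and WT 2 is blue in Scn7a, Scn3a, Scn2a, Scn3b and Cacng2.

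Some of the members lie near each other in the genome, and most of these differed little between the genotypes. On chromosome 2, the neighbours Scn3a, Scn2a, Scn9a and Scn7a had log2 fold changes of 0.05, -0.09, -0.06 and 0.04, and Scn10a and Scn11a on chromosome 9 had -0.05 and 0.08. Scn2b and Scn4b, also neighbours on chromosome 9, had -0.39 and -0.19. In the gamma groups, Cacng1, Cacng4 and Cacng5 on chromosome 11 had 0.22, -0.18 and -0.12, and Cacng7, Cacng8 and Cacng6 on chromosome 7 had -0.19, -0.18 and -0.10.

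Most partners of the channels also had lower means in KO. Of 10 measured genes that bind or anchor sodium channels, 9 had a lower mean in KO, beside 51.8% of all probe sets. The median log2 fold change was -0.15. Fgf11, a member of the fibroblast growth factor homologous factors that bind the sodium channel tail, had 9.49, 9.15 and 9.03 in KO, against 9.89, 9.60 and 9.71 in WT replicates 1 to 3. All KO values were below all WT values (log2 fold change -0.51, standard error 0.18, unadjusted p of 0.023 from limma). It was the only one of this list to fall at an unadjusted p under 0.05, beside 0.961% of all probe sets. The groups did not overlap either in Ank3, the ankyrin that holds sodium channels at the initial segment (-0.29), and in Sptbn4, its spectrin partner (-0.26). Over all probe sets, KO lay wholly below WT in 3.67%.

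Of 16 measured genes that bind or tether calcium channels, 13 had a lower mean in KO, beside 51.8% of all probe sets, with a median of -0.14. Over all probe sets, 0.961% fell unadjusted, 3.54% did with the replicate block, and 3.67% had KO wholly below WT. Stac, an adaptor of L-type channels, had 5.74, 5.61 and 5.79 in KO, against 6.01, 6.07 and 6.59 in WT, without overlap and at the dim end of the array, and was the only one of this list to fall without the replicate block (log2 fold change -0.51, standard error 0.20, unadjusted p of 0.031 from limma). KO values were also wholly below WT values in Stac2 (-0.29), in Cabp1, a calmodulin relative that slows calcium-dependent inactivation (-0.30, which fell with the replicate block at an unadjusted p of 0.044), and in Bsn, the active zone scaffold bassoon (-0.24). Cabp4, the partner of the photoreceptor L-type channel, had a log2 fold change of -0.17 with overlapping groups. The 4 measured genes of the sodium leak channel complex, led by Nalcn (-0.21), had log2 fold changes of -0.31 to -0.10, with Unc79, a cytoplasmic subunit of the complex, showing the smallest p (-0.28, unadjusted p of 0.162 from limma). No gene of these partner lists passed after adjustment over all probe sets, with or without the replicate block (limma, adjusted p = 0.9999 each without it).

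The channel genes left out by name also had lower means in KO, beside 51.8% of all probe sets. Scn1a and Scn8a, the other main sodium channel alpha subunits of central neurons, had log2 fold changes of -0.40 (standard error 0.27) and -0.22 (0.23). The photoreceptor channel subunits Cacna1f, Cacna2d4 and Cacnb2 had -0.21 (0.23), -0.11 (0.18) and -0.04 (0.16). All had overlapping groups, and apart from Scn1a no fold change was larger than its standard error. With the replicate block Scn1a fell at an unadjusted p of 0.035 from limma (adjusted p = 0.6694), beside 3.54% of all probe sets.

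Marker genes of ganglion cells, which fire sodium spikes, had lower means in KO too. All 11 measured had a lower mean (51.8% of all probe sets), with a median log2 fold change of -0.40 and a range of -0.93 to -0.07. The size differed between markers, and Rbpms (-0.07), Tubb3 (-0.07) and Sncg (-0.08) changed little. At an unadjusted p under 0.05 from limma 4 of them fell, Thy1, Nefl, Nefm and Nefh (0.961% of all probe sets), and with the replicate block 7 did (3.54%). Their summed linear intensity was 7395 to 10614 in KO and 9666 to 13012 in WT retinas. In bulk RNA, fewer cells of a type and less RNA per cell cannot be told apart. The sample medians of the ganglion cell markers, relative to the WT mean, were -0.18, -0.64 and -0.22 in KO, against 0.09, -0.39 and 0.25 in WT replicates 1 to 3. Those of the channel genes were 0.03, -0.07 and -0.17 in KO, against 0.03, -0.11 and 0.13 in WT. KO replicate 2 was thus the lowest sample for the markers and KO replicate 3 for the channels, and the part of ganglion cell content in the channel levels was not tested. The amacrine cell markers had a median log2 fold change of -0.08 (8 of 9 with a lower mean), the bipolar cell markers -0.08 (6 of 8), the rod markers 0.01 (3 of 6) and the horizontal cell markers -0.24 (6 of 6). Th of the amacrine list rose without overlap (0.57, unadjusted p of 0.011 from limma, beside 0.897% of all probe sets). Grik1 of the bipolar list (-0.39) and Lhx1 of the horizontal list (-0.40) fell unadjusted without overlap (0.961%). KO lay wholly below WT in Onecut1 of the horizontal list (-0.34) and Gnat1 of the rod list (-0.17), beside 3.67%. In Sag of the rod list it lay wholly above (0.04), beside 1.98%. Genes of oligodendrocytes and myelin, which are foreign to the mouse retina and belong to the optic nerve, had higher means in KO in 6 of 6 genes, 4 of them without overlap (beside 1.98% of all probe sets), with a median of 0.58 and a summed linear intensity of 938 to 1465 in KO and 733 to 841 in WT. Of these 6 genes, 1 rose at an unadjusted p under 0.05 (0.897% of all probe sets), and 4 did with the replicate block (3.77%). Their sample median was highest, at 0.98, in KO replicate 3, the lowest sample for the channels, and the part of optic nerve tissue in the channel levels was not tested. All 8 lens genes had lower means in KO, with a median log2 fold change of -0.89. Their sample medians were -0.61, -2.05 and 0.04 in KO, against -0.02, -1.07 and 0.96 in WT replicates 1 to 3. WT replicate 3 was thus the highest sample and WT replicate 2 the lowest of WT, for the lens genes as for the channels, whereas the lowest KO sample was replicate 2 for the lens genes. Of the lens genes, 0 fell unadjusted in limma without the block (0.961% of all probe sets) and 6 with it (3.54%). The part of lens tissue in the channel levels was not tested.

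**Figure D5:**
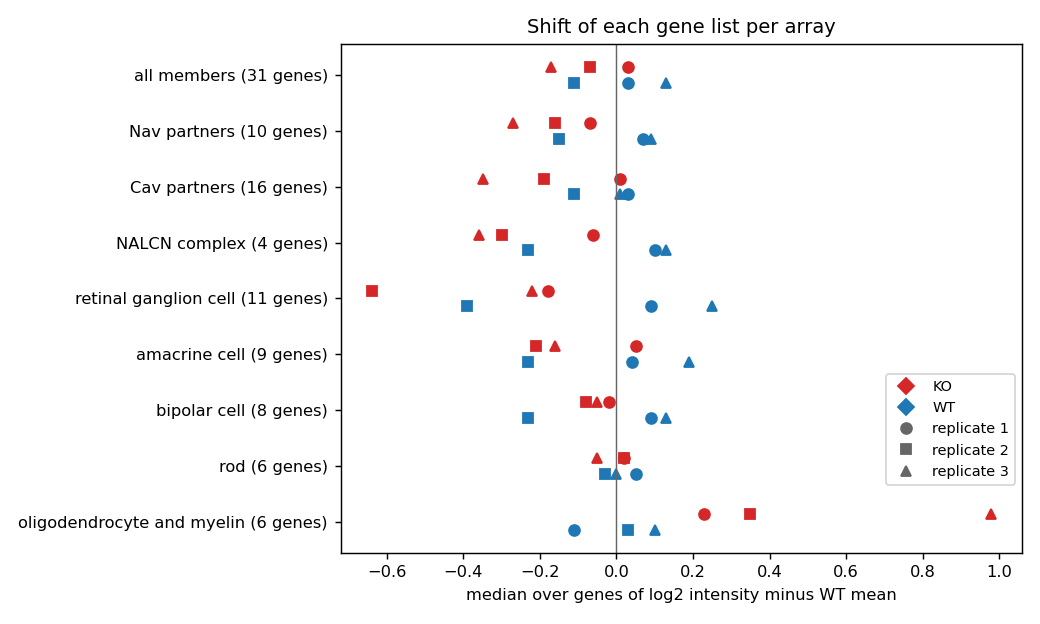
Median over the genes of each list of log2 intensity minus the WT mean (horizontal axis), 1 point per array, KO arrays drawn above WT arrays and symbols for the replicate number. For the channel genes the KO points run from -0.17 to 0.03 and the WT points from -0.11 to 0.13, and they overlap.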

How the data were processed

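Total retinal RNA in 3 samples from SIRT6-KO and 3 from SIRT6 WT mice was measured on Affymetrix whole-transcript mouse gene arrays (the ST design), each sample once. The authors state that the arrays were processed with RMA in R Bioconductor, a method that corrects background, normalizes quantiles and summarizes probe sets. The deposited values nevertheless differed in spread between arrays. Their interquartile range of log2 intensity over the tested probe sets ran from 2.27 in WT replicate 2 to 3.15 in WT replicate 3. The deposited values are intensities on a linear scale, and log2 was taken before any test. The package version, annotation and build were not given in the sources used here. RMA is meant to keep a probe set comparable between arrays, not probe sets with each other.

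Symbols came from the platform annotation. The fit covered the 23521 probe sets with 1 symbol out of 41345 (1820 had several and 16004 none), with limma 3.58.1 (lmFit, eBayes; R 4.3.3), two-sided, without covariates, and with Benjamini-Hochberg adjustment over all of them at a threshold of 0.05. The paper's statistics section names Student's test without adjustment, so unadjusted p-values are given too. Exact permutation tests used all splits of 3 against 3. The limma script was tested on simulated data with independent noise in each array. These lacked the correlated deviations and unequal spreads of the real arrays, so the test checked the script and not the p-values of these data. Array number limits the precision, and no member or marker gene has a value of 0.

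The titles number the samples of both genotypes 1 to 3, and the descriptions give same-numbered samples a common mark whose meaning is not stated. Over all probe sets, the deviations of same-numbered samples from their group means correlated at 0.63, 0.74 and 0.19. Those of KO replicate 1 and WT replicate 3, which share no number, correlated at 0.51, so the pairing is weak for number 3. The numbers were nevertheless taken as pairs. The blocked value is given where it changes the call of a member, a partner or a channel gene outside the membership. Blocked counts are given for the ganglion cell, myelin and lens markers, and not for the other marker lists.

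Every member is named, with the values of all samples for members that pass unadjusted, that do not overlap between the groups, or that have the smallest or next smallest p of their role. Of the partner lists, the genes passing unadjusted, or the one with the smallest p, were named. Other partners and Scn3a, Scn7a and Cacna1g, which are given with further sample values, were chosen after their values were seen. The members, the gene lists, the tests and the alternatives were chosen with earlier results of these data known. The alternatives were the replicate block, the methods' t-test, repeated quantile normalization, median centring, leaving out dim probe sets, the probe set of largest variance, array weights, a trend with a robust prior, leaving out each sample, and leaving out both samples numbered 2. The promoter sequences are those of RefSeq on GRCm38.p6.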

Additional observations from a re-analysis of the deposited data

How the results depend on the processing

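Of 31 members, 1 (Cacna1i) fell at an unadjusted p under 0.05 from limma. The count was 2 with the replicate block and with repeated quantile normalization (Scn2b joined in both), 3 without both samples numbered 2 (Cacna1a, Cacna1i and Cacnb1), 6 with array weights and 0 with the methods' t-test. It lay between 0 and 2 when single samples were left out. It was 0 without KO replicate 3, WT replicate 1 or WT replicate 3, and 2 without KO replicate 1 or WT replicate 2. Over all probe sets, 0.961% fell in the main fit and 3.54% with the replicate block. The shares under the other alternatives were not determined, so these counts cannot be set against them. The array weights did not converge and gave WT replicate 1 a weight of 19.2, against 0.149 to 1.30 for the other arrays, so that this fit rests on a single array. In all alternatives run, 0 members rose unadjusted and 0 passed after adjustment (smallest adjusted p = 0.122, with array weights). The median log2 fold change of the members stayed below 0, from -0.20 to -0.05. Leaving out a single sample turned the sign of 15 of the 31 members. Among those given in full by the rule for named genes, Cacna1h (-0.27 to 0.10 over the left-out samples) and Cacna2d2 (-0.25 to 0.04) were higher in KO without KO replicate 3, Scn2a (-0.28 to 0.04) was higher without WT replicate 3, and Cacna2d3 (-0.03 to 0.25) was lower without WT replicate 2. Scn7a ran from -0.29 to 0.30 and Cacna1g from -0.15 to 0.19. Among the members, the replicate block changed no call other than that of Scn2b. Without dim probe sets, Scn10a, Scn11a and Cacng1 dropped out of the comparison.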

Other observations

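A further probe set of the array (17371281) carries 2 gene symbols, Scn9a and Gm13629, and was therefore outside the comparison. Its log2 intensity was 6.95, 6.40 and 6.34 in KO replicates 1 to 3, against 7.15, 6.84 and 7.20 in WT replicates 1 to 3. KO replicates 2 and 3 lay below every WT sample, and the difference in means was -0.50 (exact permutation test, two-sided, p = 0.20). The Scn9a probe set with a single symbol had 7.00, 7.26 and 7.20 in KO, against 7.27, 7.14 and 7.22 in WT. The transcript that the probe set with 2 symbols reads was not determined.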
